A study of Mus musculus with 42 samples.

Results

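In wild-type epiblast-like cells exposed to CHIR99021, 12604 genomic regions were occupied reproducibly by SOX2, by β-catenin or by both, of 88428 merged regions in the peak lists of these factors and 336178 in all 30 lists of the series. A region was retained when a peak from the 20000 best of a library lay in it for at least 2 of the 3 libraries of a factor. Of the 12604 regions, 2656 met this condition for both factors and are called shared, 2921 met it for SOX2 alone (SOX2-only) and 7027 for β-catenin alone (β-catenin-only). These were 3.00%, 3.30% and 7.95% of the merged regions. Peaks were ranked by the −log10 q value given by the peak caller, so rank 1 is the strongest peak of a library. Rank and number of calls therefore chose the regions and are described without a test.

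All 6 libraries came from HM1 (129) mouse embryonic stem cells, the wild-type line of the series, which the methods give as the HM1 TetON parent of the other lines. The cells were differentiated for 2 days with bFGF and LGK974, an inhibitor of WNT secretion, and then received CHIR99021 as well until collection at 72 h. CHIR99021 inhibits GSK3 and so stabilises β-catenin. SOX2 was precipitated with a goat antibody and β-catenin with a rabbit antibody, 3 biological replicates each, so factor and antibody cannot be told apart. The series also held LEF1 libraries from the same condition, SOX2 libraries from wild-type cells with bFGF and LGK974 only (noCHIR), and SOX2, β-catenin and LEF1 libraries, all with CHIR99021, from the mutant genotypes labelled T/Bra-/- and Cdx1/2/4-/-. Those 24 libraries did not choose the regions and are used below as an independent look. Peak lists hold no expression values, so the labelled cell type could not be checked against marker genes, and separate precipitations of cultures do not show whether both proteins sat on the same DNA molecule.

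SOX2 is an HMG-box factor that binds DNA directly, maintains pluripotent and neural progenitor states, and in pluripotent cells often sits beside OCT4 (Pou5f1) on a composite motif. β-catenin is the transcriptional effector of canonical WNT signalling. It does not bind DNA itself and is brought to the genome mainly by the HMG-box factors of the TCF/LEF family. The core motifs of both families resemble each other. In the caudal epiblast, WNT signalling induces T, the Cdx genes and posterior Hox genes while SOX2 is still present, so that both factors can meet at the same loci.

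The following windows reach 50 bp to either side of the best summit of a region. Read on the plus strand of GRCm38.p6 (mm10), they show what each class looks like. Capitals mark a match to a SOX core (CCATTGT or CCTTTGT), an OCT core (ATGCAAA), the OCT-SOX composite, a TCF/LEF core (CTTTGAA or CTTTGAT), a T-box core (AGGTGTG) or a CDX core (CAATAAA or CCATAAA or TAATAAA or TCATAAA) on either strand. The SOX and TCF/LEF cores differ in the letter after CTTTG, so no 7 letters match both, while the OCT core can overlap the composite. The first 2 windows are from shared regions, the next 3 from SOX2-only regions and the last 3 from β-catenin-only regions.
Intergenic region 52582 bp upstream of 1700081H04Rik, chr5:119055602-119055702: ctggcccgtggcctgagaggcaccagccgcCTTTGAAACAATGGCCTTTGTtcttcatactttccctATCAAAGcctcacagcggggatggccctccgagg
T promoter, chr17:8434145-8434245: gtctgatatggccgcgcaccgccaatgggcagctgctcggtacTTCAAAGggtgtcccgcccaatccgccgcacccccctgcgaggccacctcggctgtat
Ebf1 intron, chr11:44841835-44841935: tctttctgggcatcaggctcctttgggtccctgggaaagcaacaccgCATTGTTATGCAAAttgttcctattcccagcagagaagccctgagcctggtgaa
Slc18b1 intron, chr10:23813159-23813259: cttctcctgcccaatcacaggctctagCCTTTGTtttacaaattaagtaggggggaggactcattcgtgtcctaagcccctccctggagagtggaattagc
Downstream of Sox2, chr3:34654022-34654122: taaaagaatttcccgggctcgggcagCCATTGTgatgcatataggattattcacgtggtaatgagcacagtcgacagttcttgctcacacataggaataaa
Upstream of Lef1, chr3:131106034-131106134: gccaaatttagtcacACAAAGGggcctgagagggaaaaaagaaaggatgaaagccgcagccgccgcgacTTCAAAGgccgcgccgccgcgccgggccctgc
Msgn1 promoter, chr12:11209116-11209216: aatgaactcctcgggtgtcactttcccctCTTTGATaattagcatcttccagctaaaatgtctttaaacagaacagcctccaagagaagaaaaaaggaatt
Klhl6 upstream, chr16:19997099-19997199: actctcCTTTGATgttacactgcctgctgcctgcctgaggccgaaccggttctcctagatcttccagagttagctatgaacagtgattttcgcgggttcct
The first window held SOX and TCF/LEF cores side by side, and the T promoter window held a TCF/LEF core without a SOX core. The Ebf1 window held the composite and the Slc18b1 and Sox2 windows a SOX core. The Msgn1 and Klhl6 windows held a TCF/LEF core alone, and the window upstream of Lef1 held a TCF/LEF core and a SOX core although it was called in 1 of 3 SOX2 libraries.

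The lists differed in size and strength, and SOX2 replicate 3 stood apart. The deposited lists held 205833 to 1008922 SOX2 peaks and 40067 to 469083 β-catenin peaks, so the 20000 best were 1.98% of the longest list and 49.9% of the shortest. At the last peak used, fold enrichment was 9.75, 6.91 and 6.59 in SOX2 replicates 1 to 3 and 4.40, 5.65 and 8.08 in β-catenin replicates 1 to 3. Read totals are unknown. Solving the formulas of the peak caller for the last 1000 peaks used gave a median of 12 to 17 reads at the summit, so the weakest calls rest on few reads. Similarity was expressed as the Jaccard index, the share of regions called in either library that were called in both. It was 0.061 to 0.10 among SOX2 libraries, 0.19 to 0.22 among β-catenin libraries and 0.058 to 0.15 between factors. SOX2 replicate 3 had a mean index of 0.125 with the β-catenin libraries and 0.0998 with the other SOX2 libraries. It also held most of the retained SOX2 regions, namely 2573 of the shared and 2675 of the SOX2-only regions, against 1946 and 2014 in replicate 1 and 2054 and 1844 in replicate 2. Without it, 1333 shared, 937 SOX2-only and 8340 β-catenin-only regions remained. Similarity within factors exceeded similarity between them by 0.060 (one-sided exact permutation test, p = 0.1, the smallest that 10 partitions allow). The mean index was 0.0869 among SOX2 libraries and 0.0855 between factors, so the difference came from the β-catenin libraries, whose mean was 0.205. It was 0.103 without SOX2 replicate 3, 0.0339, 0.0288 and 0.0308 without β-catenin replicates 1, 2 and 3 (exact permutation p = 0.2 each) and 0.0083 with full lists (exact permutation p = 0.3).

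Shared regions ranked best for both factors. A region takes the rank of its best peak in a library, and shared regions were wider (median 732 bp, against 410 and 430 bp). The part of width in these ranks was not tested. Of the 5577 retained SOX2 regions 47.6% were shared, and of the 9683 retained β-catenin regions 27.4%. With the regions of a factor divided by mean rank into 5 equal parts, the share of SOX2 regions that were shared went from 73.7% in the best part to 27.4% in the weakest, and that of β-catenin regions from 52.7% to 15.2%. Of the 1000 best peaks of a library, shared regions took 67.0%, 68.2% and 74.1% in SOX2 replicates 1 to 3 and 66.3%, 56.2% and 58.9% in β-catenin replicates 1 to 3. The median rank of shared regions was 1914, 1958 and 2115 in the SOX2 libraries, whereas that of SOX2-only regions was 4506, 4382 and 5012. In the β-catenin libraries the medians were 2454, 2728 and 2615 for shared and 5682, 4913 and 4733 for β-catenin-only regions. The order of strength was nevertheless only weakly common to the factors. Over the 2656 shared regions, Spearman's rho between the mean SOX2 rank and the mean β-catenin rank was 0.227, whereas pairs of SOX2 libraries gave 0.490 to 0.575 and pairs of β-catenin libraries 0.781 to 0.814. These are correlations across regions of the same libraries, which are not independent replicates. At the threshold, the region just inside had a second-best rank of 19987 for SOX2 and 19984 for β-catenin, and the region just outside 20010 and 20001.

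Single-factor calls were relative, not absolute. In the full lists of the other factor, 32.6% of SOX2-only regions were in none of the 3 β-catenin lists and 9.76% were in all 3. Of β-catenin-only regions, 18.4% were in none of the SOX2 lists and 20.0% in all 3. All merged regions, which include those supplied by the lists looked up, were in none of the β-catenin lists in 40.5% and of the SOX2 lists in 24.6%, and in all 3 in 10.6% and 9.47%. With the same regions moved by 10000 bp, 81.4% of SOX2-only regions were in no β-catenin list and 0.445% in all 3, and 61.6% of β-catenin-only regions were in no SOX2 list and 1.34% in all 3. SOX2-only therefore means that β-catenin was not reproducibly among the 20000 best peaks there, not that it was absent. Under a stricter rule, with all 3 libraries of a factor and none of the other, or all 6, there were 969 shared (1.10% of merged regions), 411 SOX2-only (0.465%) and 2070 β-catenin-only regions (2.34%).

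The division into classes was seen again in libraries that had not chosen the regions. A region was looked up in the 20000 best peaks of each of the other 24 libraries. In the 6 SOX2 libraries of the mutant lines, 83.9% ± 3.5 (SD, n = 6) of shared, 65.5% ± 5.1 of SOX2-only and 24.4% ± 3.7 of β-catenin-only regions were called. In the 6 β-catenin libraries of these lines the order of the single-factor classes was the opposite, with 82.6% ± 6.7 of shared, 19.0% ± 5.5 of SOX2-only and 64.2% ± 3.7 of β-catenin-only regions called. No library of one factor overlapped a library of the other in the difference between the single-factor classes. This difference, SOX2-only minus β-catenin-only, was 86.3 percentage points higher in SOX2 than in β-catenin libraries (two-sided exact permutation test of the factor within genotype, p = 0.005, which is the smallest it can give, with an adjusted p of 0.0067 over 4 such tests). It was 88.0 points in the Cdx mutant and 84.6 in the T/Bra mutant, which differ by 3.34 points (exact permutation test, p = 0.535). In SOX2 libraries of noCHIR cells, 72.8% ± 3.3 (SD, n = 3) of shared, 68.3% ± 4.0 of SOX2-only and 18.1% ± 2.2 of β-catenin-only regions were called, so most shared regions were also among the best SOX2 peaks of cells without CHIR99021. The difference between the single-factor classes was 50.2 points there and positive in 3 of 3 libraries (exact sign-flip permutation test, p = 0.25, the smallest possible).

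LEF1, a DNA-binding partner of β-catenin, was found at shared and β-catenin-only regions and rarely at SOX2-only regions. In the 3 wild-type LEF1 libraries with CHIR99021, 33.6%, 24.6% and 29.4% of shared regions were called, 18.5%, 12.2% and 16.3% of β-catenin-only regions and 3.22%, 2.33% and 2.33% of SOX2-only regions. The 3 classes did not overlap among these libraries. Over the 9 LEF1 libraries of all genotypes, the call rate was 13.1 percentage points higher at β-catenin-only than at SOX2-only regions and 18.1 points higher at shared than at single-factor regions, in 9 of 9 libraries each (two-sided exact sign-flip permutation tests, p = 0.0039 and adjusted p = 0.0067 for both). Shared regions were wider (median 732 bp, against 410 bp for SOX2-only and 430 bp for β-catenin-only). In windows of 500 bp centred on the summits, an alternative chosen after the data were seen, the differences were 13.0 and 16.9 points. Shared regions also ranked better, and the part of rank in this difference was not tested.

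Counted over at least 2 of 3 libraries, 25.5% of shared, 11.4% of β-catenin-only and 0.787% of SOX2-only regions were called for LEF1 in wild-type cells, where 1.84% of all 88428 merged regions were. The values for LEF1 were 31.3%, 16.3% and 1.13% in the Cdx mutant (2.57% of all merged regions) and 24.3%, 8.65% and 0.822% in the T/Bra mutant (1.58%). By this count LEF1 was above the share of all merged regions at shared and β-catenin-only regions and below it at SOX2-only regions. In single libraries the rate at SOX2-only regions lay near that of all merged regions, at 3.08% ± 0.69 against 3.20% ± 0.56 (SD, n = 9). For SOX2, shared and SOX2-only regions were called in 73.5% and 70.2% of cases without CHIR99021 (10.3% of all merged regions), 85.5% and 67.3% in the Cdx mutant (10.1%) and 86.3% and 67.3% in the T/Bra mutant (9.69%). For β-catenin, shared and β-catenin-only regions were called in 80.7% and 63.4% of cases in the Cdx mutant (10.1%) and in 89.2% and 67.7% in the T/Bra mutant (12.2%). A set of 88 shared regions (3.31%) was called in all 24 other libraries, whereas 0 SOX2-only regions and 1 β-catenin-only region (0.014%) were. These libraries include both factors, and single-factor regions were chosen as not reproducibly called for the other factor. Their low counts therefore follow in part from the rule. The share over all merged regions is not given here.

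**Figure D1:**
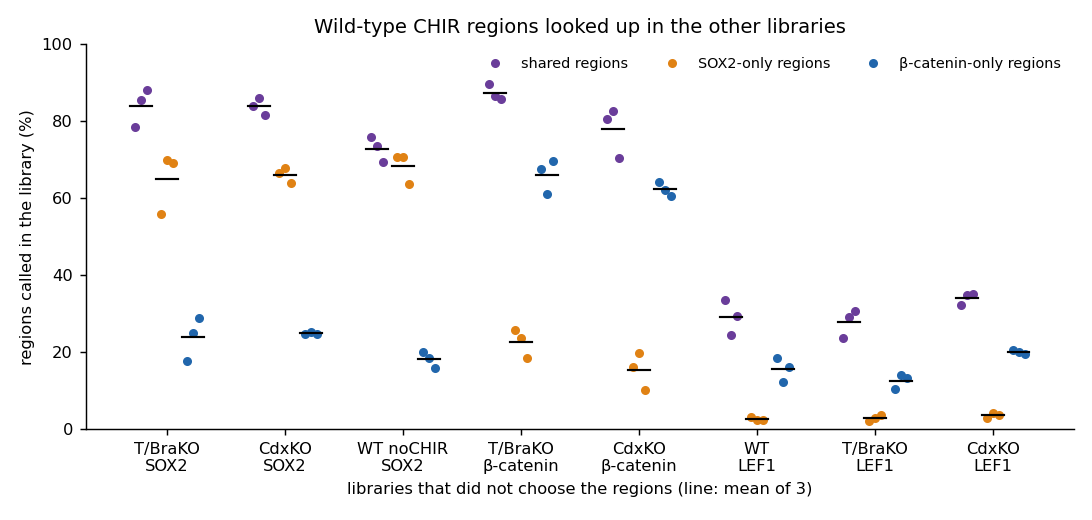
Percentage of shared, SOX2-only and β-catenin-only regions of wild-type CHIR cells (y axis) that were called in each of 24 libraries that did not choose them (x axis, by genotype and factor). Each point is 1 library and each line the mean of 3. SOX2-only points lie above β-catenin-only points in every SOX2 library and below them in every β-catenin and LEF1 library.

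SOX cores marked SOX2 peaks and TCF/LEF cores β-catenin peaks. Within 100 bp of the summit, a SOX core was present at 15.3%, 14.9% and 21.02% of peaks in SOX2 replicates 1 to 3 and at 12.3%, 11.2% and 11.1% in β-catenin replicates 1 to 3. The lists did not overlap (17.1% ± 3.4 against 11.5% ± 0.70, SD, n = 3; two-sided exact permutation test, p = 0.1, which is the smallest it can give, and adjusted p = 0.22 over 11 library measures). The difference was 5.56 percentage points, 3.598 without SOX2 replicate 3 and 1.12 with full lists, where the lists overlapped (exact permutation p = 0.4). Windows placed 1000 bp away held a SOX core in 7.22% and 6.98%, and those at all merged regions in 12.1%. A TCF/LEF core was present at 10.6%, 10.8% and 12.7% of SOX2 peaks and at 28.8%, 27.2% and 26.5% of β-catenin peaks, against 8.25% and 8.43% in moved windows and 15.2% at all merged regions. These lists did not overlap either and differed by 16.1 percentage points (exact permutation test, p = 0.1, the smallest possible, adjusted p = 0.22). Among the 1000 best peaks of a library, TCF/LEF cores reached 59.6% to 64.3% in β-catenin lists and 16.8% to 19.5% in SOX2 lists, whereas SOX cores reached 32.1% to 39.5% in SOX2 lists and 15.2% to 15.8% in β-catenin lists.

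The classes separated further. In the same windows a SOX core was found in 31.2% of SOX2-only regions (95% Wilson interval 29.6 to 32.9), 29.7% of shared regions at their SOX2 summit (28.0 to 31.5) and 10.7% of β-catenin-only regions (10.0 to 11.5). A TCF/LEF core lay there in 6.03% of SOX2-only regions (5.22 to 6.95), 32.3% of shared regions at their β-catenin summit (30.5 to 34.1) and 46.9% of β-catenin-only regions (45.7 to 48.0). The value for SOX2-only regions was below that of their own moved windows, 8.66%. Those moved windows held less guanine and cytosine, 45.8% against 51.4%, and the part of base composition was not tested. Shared regions held a SOX core in 24.3% at their β-catenin summit and a TCF/LEF core in 25.8% at their SOX2 summit. Intervals cover counting error over regions only. Each kind of core, taken alone, was thus more frequent at shared regions than in their moved windows. Those of the β-catenin summit held a SOX core in 6.59% and a TCF/LEF core in 6.97%. Only 7.04% of shared regions carried both cores within 100 bp of the β-catenin summit and 50.5% carried neither. The rate of both cores together in moved windows is not given here.

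At shared regions the summits of both factors lay close together. SOX cores were nevertheless more frequent within 25 bp of SOX2 summits, and TCF/LEF cores within 25 bp of β-catenin summits. The median distance between the best SOX2 and the best β-catenin summit was 36 bp. Between single libraries of different factors the medians were 33 to 48 bp, against 28 to 35 bp between SOX2 libraries and 23 to 26 bp between β-catenin libraries. Within 25 bp of a library's own summit, a SOX core was found in 11.8%, 13.2% and 13.3% of the shared regions called in SOX2 replicates 1 to 3 and in 8.90%, 8.16% and 6.94% of those in β-catenin replicates 1 to 3. A TCF/LEF core was found in 7.14%, 7.94% and 9.17% for SOX2 and in 13.6%, 13.9% and 14.3% for β-catenin. Neither core overlapped between factors, with differences of 4.77 points for SOX and −5.87 points for TCF/LEF, SOX2 minus β-catenin (exact permutation tests, p = 0.1 each, the smallest possible, adjusted p = 0.22).

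**Figure D2:**
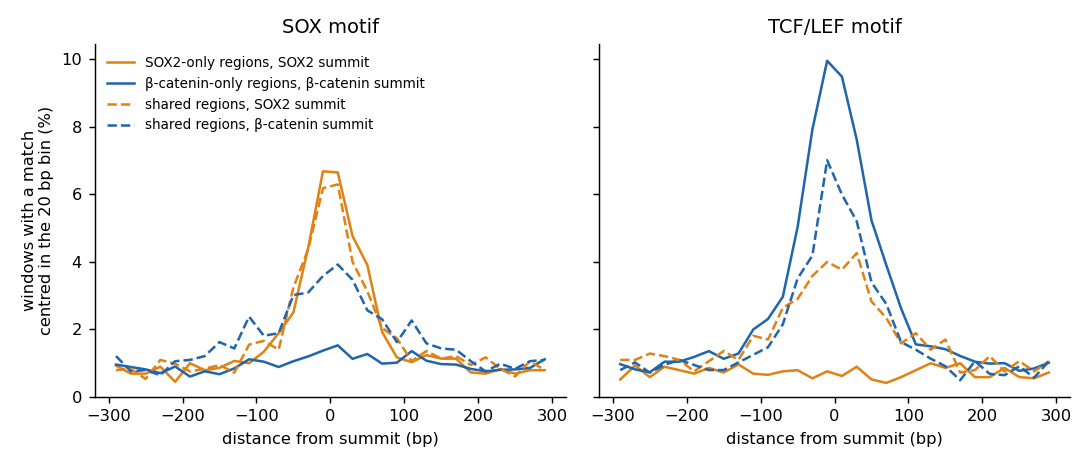
Percentage of windows (y axis) with a SOX core (left) or a TCF/LEF core (right) centred in each 20 bp bin, by distance from the summit (x axis, bp). Solid lines are single-factor regions and dashed lines the same 2656 shared regions centred on their SOX2 or their β-catenin summit. In the bin just left of the summit the TCF/LEF core reached 9.95% in β-catenin-only and 0.753% in SOX2-only regions, and the SOX core 6.68% in SOX2-only and 1.37% in β-catenin-only regions.

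Other motifs differed between the factors by fewer percentage points, although the lists did not overlap for the OCT-SOX composite. The OCT-SOX composite was rare but lay at 0.140%, 0.135% and 0.195% of SOX2 peaks in replicates 1 to 3 and at 0.065%, 0.040% and 0.050% of β-catenin peaks (exact permutation test, p = 0.1, the smallest possible, adjusted p = 0.22). By class it was found in 20 SOX2-only regions (0.685%), in 9 shared regions at the SOX2 summit (0.339%) and in 1 β-catenin-only region (0.014%). Over all merged regions the share was 0.054%. OCT cores were at 6.67% ± 0.61 of SOX2 and 6.35% ± 0.26 of β-catenin peaks, which overlapped (p = 0.7, exact permutation test), and at 10.5% of SOX2-only, 10.9% of shared and 7.10% of β-catenin-only regions. CDX cores, AT-rich letters recognised by the caudal factors, were at 15.4% ± 0.60 and 14.0% ± 1.0 of peaks, below the moved windows in both factors (17.1% and 16.5%; p = 0.2, exact permutation test). T-box cores, recognised by T and TBX6, were at 4.44% ± 0.27 and 5.00% ± 0.47 (p = 0.3, exact permutation test), near the moved windows (4.54% and 4.69%). Guanine and cytosine made up 47.1% ± 1.2 of the letters around SOX2 summits and 49.2% ± 1.1 around β-catenin summits (p = 0.2, exact permutation test). By class they made up 51.4% in SOX2-only, 50.8% in β-catenin-only and 50.1% in shared regions. In the moved windows of SOX2 and β-catenin summits the values were 44.3% and 44.8%. The part of base composition in the CDX and other motif shares was not tested.

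SOX2-only regions lay at promoters more often than the other classes. The summit was within 1000 bp of an annotated transcription start site in 30.5% of SOX2-only regions (95% Wilson interval 28.9 to 32.2), 16.5% of shared regions (15.1 to 17.9) and 16.0% of β-catenin-only regions (15.2 to 16.9), against 13.6% of all merged regions. Between the best and the weakest of the 5 parts by mean rank, this share went from 19.6% to 27.6% of retained SOX2 regions. For retained β-catenin regions it went from 10.4% to 23.0%. The part of rank in the class difference was not tested. The median distance to a start site was 5698 bp for SOX2-only, 10239 bp for shared and 10986 bp for β-catenin-only regions. Introns held 31.6%, 39.5% and 37.0% of the classes in this order and intergenic sequence 35.4%, 41.8% and 44.1%. Promoters of the single-factor classes differed in their letters. At SOX2-only promoters a SOX core was present in 31.2% and a TCF/LEF core in 4.04%, whereas at β-catenin-only promoters the values were 7.29% and 31.1%.

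Over whole libraries the promoter difference depended on how many peaks were taken. Among the 1000 best peaks, 20.9%, 19.6% and 18.3% of SOX2 summits in replicates 1 to 3 were at promoters, against 9.70%, 8.30% and 9.20% of β-catenin summits, and the lists did not overlap. Among the 5000 best the means were 19.3% ± 1.8 and 12.5% ± 0.82, again without overlap (SD, n = 3; exact permutation test, p = 0.1, the smallest possible). Among the 20000 best they were 14.9% ± 3.8 and 15.0% ± 3.1 and overlapped (p = 1.0, exact permutation test). The median distance to a start site at that depth was 12818, 13379.5 and 9380 bp in SOX2 replicates 1 to 3 and 10046, 12274.5 and 12126.5 bp in β-catenin replicates 1 to 3, and on the log10 scale it did not separate the factors either (p = 0.8, exact permutation test). SOX2 replicate 3 and β-catenin replicate 1 lay nearest to start sites and had the highest promoter shares of their factors, 19.1% and 18.6%.

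**Figure D3:**
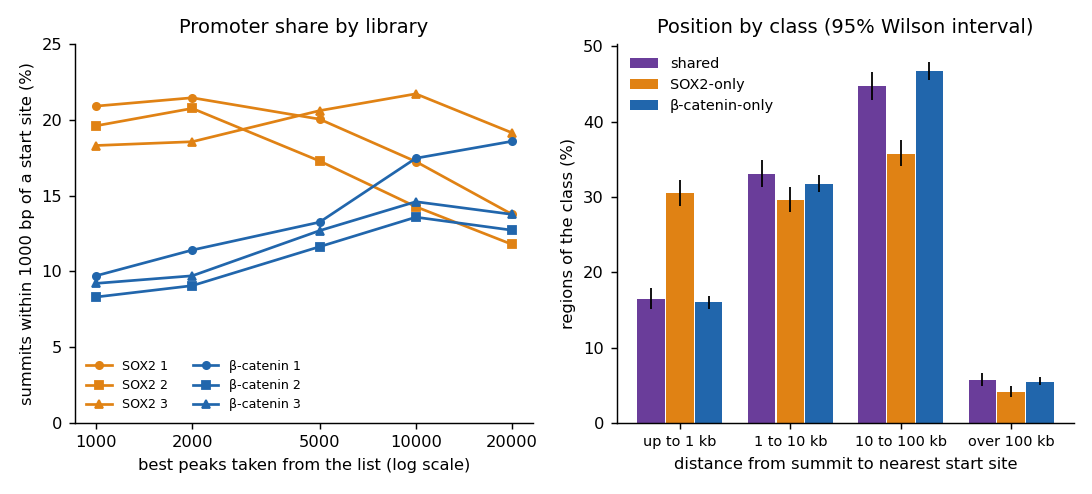
Left, percentage of summits within 1000 bp of a start site (y axis) against the number of best peaks taken (x axis, log scale) for each library. Right, percentage of regions of each class by distance to the nearest start site, with 95% Wilson intervals, shared regions at their SOX2 summit. The factors are apart up to 5000 peaks and overlap from 10000 on, and the SOX2-only class has 30.5% of its regions within 1 kb.

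Lists of genes with known roles were then set against the classes, with members given as examples in list order. The lists were chosen with earlier results of these data known, so the counts are described without a test. A gene was counted when the summit of a region lay in its body or within 10 kb of it. Over all 21911 protein-coding genes, 7.69% had a shared, 11.4% a SOX2-only and 17.9% a β-catenin-only region. Of 19 genes of caudal epiblast and neuromesodermal progenitors, 17 had a shared region (89.5%), 5 a SOX2-only and 11 a β-catenin-only region. Those with a shared region began with the T-box gene T and the homeobox genes Cdx1, Cdx2 and Cdx4. Of 24 WNT feedback and target genes, 13 had a shared region, among them the negative regulator Axin2 and the TCF/LEF genes Lef1, Tcf7, Tcf7l1 and Tcf7l2. In this list 15 genes had a β-catenin-only region, the same 5 genes included, and 6 a SOX2-only region, beginning with Tcf7l1, Sp8, the receptor Lgr5 and the ubiquitin ligase Znrf3. Of 17 FGF ligands and feedback genes, 9 had a shared, 12 a β-catenin-only and 2 a SOX2-only region, the last being the ETS factors Etv4 and Etv5. The 39 Hox genes, whose clusters are dense so that neighbours share regions, had 22, 26 and 16.

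In the mesodermal lists, as over all genes, β-catenin-only regions were the most frequent. Of 18 paraxial mesoderm genes, 12 had such a region (66.7%), among them Tbx6, Msgn1 and the Notch ligands Dll1 and Dll3. A shared region was present at 7 of them (38.9%) and a SOX2-only region at 4 (22.2%). Of 18 mesendoderm and Nodal pathway genes, 8 had a β-catenin-only region, such as Eomes, Mixl1 and Gsc, 6 a shared region, such as Foxa2, Nodal and its inhibitor Lefty1, and 5 a SOX2-only region. Of 26 pluripotency and epiblast genes, 12 had a shared region, including Pou5f1, Nanog, Klf4 and Prdm14, and 8 each of the single-factor kinds. SOX2-only regions lay at Esrrb, Tfcp2l1, Tbx3 and Nr5a2, and β-catenin-only regions at Klf2, Klf5 and likewise Esrrb. Of 29 neural genes, 10 had a SOX2-only region, such as Pax6, Nes and Irx3, 14 a β-catenin-only and 7 a shared region. The 5 Sox genes of group B had 0 shared, 2 SOX2-only (Sox2 and Sox14) and 3 β-catenin-only members (Sox1, Sox2 and Sox14). By the nearest start site instead, 3 of the 5 had a shared region. The 84 ribosomal protein genes, taken as housekeeping genes, had 3 shared, 11 SOX2-only and 15 β-catenin-only members, which were 3.57%, 13.1% and 17.9%. The median gene of the lists was between 2.06 kb (Sox genes of group B) and 34.4 kb (WNT genes) long, against 17.4 kb over all genes, and the part of gene length was not tested.

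**Figure D4:**
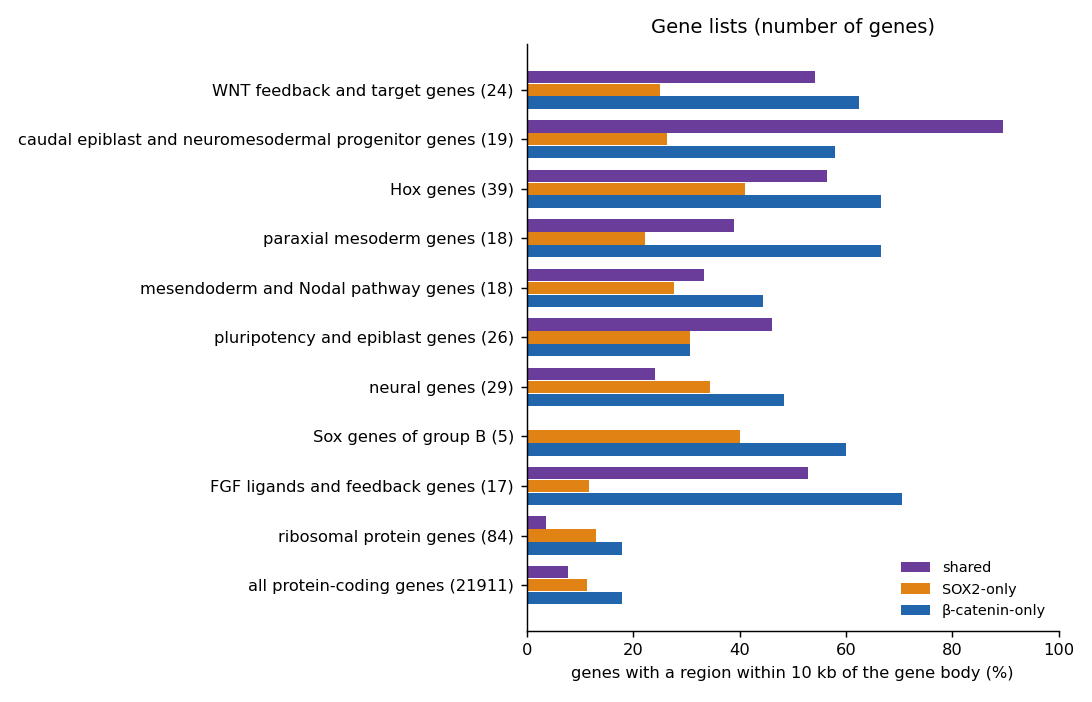
Percentage of the genes of each list (x axis) with a shared, SOX2-only or β-catenin-only region within 10 kb of the gene body, beside all protein-coding genes. The number of genes is in brackets. Caudal epiblast genes have the largest share with a shared region (89.5%), and ribosomal protein genes 3.57%.

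The named loci were then read in single libraries, with the region of a class that had the lowest mean rank over the libraries calling it taken as the best. The ranks given are those of this region. At several loci another peak within 10 kb of the gene ranked better in single libraries. Sp5, a direct WNT target that encodes a zinc-finger factor, had 3 shared regions, the best of them at its promoter (chr2:70473696-70476466). This region ranked 604, 86 and 83 in SOX2 replicates 1 to 3 and 5, 15 and 6 in β-catenin replicates 1 to 3, and it was called in all 24 other libraries. It was thus among the very best β-catenin peaks of each library and among the best 1000 for SOX2. At Axin2, a scaffold of the β-catenin destruction complex, the promoter region (chr11:108921880-108923675) ranked 876 and 2308 in SOX2 replicates 1 and 3, had no peak in SOX2 replicate 2, and ranked 694, 1325 and 1086 for β-catenin. It was 1 of 3 shared regions of Axin2. Other peaks within 10 kb of the gene ranked better for β-catenin, at 72, 181 and 45 in replicates 1 to 3. SOX2 replicate 2 had its best peak there at 4308. An intronic region 1309 bp downstream of the Axin2 start site (chr11:108923861-108924801) was β-catenin-only, with ranks of 2873, 5032 and 3059 for β-catenin and none better than 29617 for SOX2.

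At Lef1, 2 shared and 4 β-catenin-only regions were found. The best β-catenin-only region, 4387 bp upstream of the start site (chr3:131105197-131106551), ranked 201, 708 and 240 for β-catenin and was called in 7 of 9 LEF1 libraries. It was ranked 1495 in SOX2 replicate 3 but 99201 and 182123 in replicates 1 and 2, and it was called in 6 of 6 mutant and 3 of 3 noCHIR SOX2 libraries, so its β-catenin-only class did not hold in the other SOX2 libraries. The best shared region lay 7992 bp upstream (chr3:131101998-131102743), ranked 1335, 1937 and 375 for SOX2 and 1994, 12770 and 3395 for β-catenin, and was called in 0 of 9 LEF1 libraries.

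T and the Cdx genes, which drive posterior body formation, had shared regions. The T promoter region (chr17:8433378-8434685, summit 228 bp upstream) ranked 3212, 2291 and 1592 for SOX2 and 315, 282 and 292 for β-catenin. Other peaks within 10 kb of T ranked better for SOX2, at 225, 1041 and 795 in replicates 1 to 3. At Cdx1 the promoter region ranked 2212, 340 and 501 for SOX2 and 22, 10 and 21 for β-catenin. The intronic region of Cdx2 (chr5:147303643-147305396) ranked 591, 288 and 1135 for SOX2 and 162, 253 and 325 for β-catenin, and like that of Cdx1 it was called in all 24 other libraries. Cdx4 was weaker, with ranks of 13324 and 6255 in SOX2 replicates 1 and 3, no peak in replicate 2, and 2661, 24377 and 12649 for β-catenin. At Wnt3a, a posterior WNT ligand, and Fgf8, an FGF ligand of the streak, the shared regions (the former nearer to the start of Arf1) were called in 17 and 13 of the other libraries and in none of the 3 noCHIR SOX2 libraries.

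Tbx6 and Msgn1, which specify paraxial mesoderm, had β-catenin-only regions and no shared or SOX2-only one. At Tbx6 the best region (chr7:126784889-126785720) ranked 3021, 491 and 681 for β-catenin, whereas SOX2 replicates 2 and 3 had ranks of 68367 and 38171 and replicate 1 no peak. Within 10 kb of Tbx6 the best SOX2 peaks of the full lists ranked 32346, 43135 and 38171 in replicates 1 to 3. SOX2 peaks were therefore weak but not absent at this locus. At the Msgn1 promoter (chr12:11208801-11209386) the ranks were 1273, 371 and 611 for β-catenin and 245899, 56761 and 10930 for SOX2. In the mutant lines both regions were called in 4 of 6 β-catenin libraries and 0 of 6 SOX2 libraries. Nodal, a TGFβ ligand, had a shared region 1989 bp upstream with ranks of 3323, 2028 and 2781 for SOX2 and 792, 975 and 620 for β-catenin, and a weaker β-catenin-only region 283 bp downstream of its start site, without a peak in any SOX2 list.

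In the Hoxb cluster 1 shared region at Hoxb8 (chr11:96283348-96284254) had the lowest mean rank at both Hoxb8 and Hoxb9, with ranks of 1388, 3076 and 2616 for SOX2 and 1485, 2664 and 3350 for β-catenin. In each library another peak within 10 kb of these genes ranked better, at 328, 2381 and 2036 for SOX2 and 640, 1850 and 1216 for β-catenin. The region held CDX cores on both strands. At Meis3, a Hox cofactor, the shared region ranked 139, 500 and 344 for β-catenin but 18515 and 2158 in SOX2 replicates 2 and 3, with no peak in replicate 1.

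Loci of pluripotency varied. Downstream of Sox2 (chr3:34653717-34654461, inside Sox2ot and closest to the start of Gm27611) a SOX2-only region ranked 203, 623 and 1683 for SOX2, 8877 in β-catenin replicate 1 and had no peak in the other β-catenin lists. It was called in 6 of 6 mutant SOX2 and 3 of 3 noCHIR SOX2 libraries and in 0 of 9 LEF1 libraries. A β-catenin-only region was its neighbour (chr3:34652825-34653493), with ranks of 2570, 62206 and 2257 for β-catenin. The promoter region of Pou5f1, which encodes OCT4, was shared (chr17:35504767-35506052), with ranks of 493, 295 and 274 for SOX2 and 730, 1378 and 628 for β-catenin. Other peaks within 10 kb of Pou5f1 ranked better for SOX2, at 65, 191 and 122 in replicates 1 to 3. At the Nanog promoter, which held the OCT-SOX composite, ranks were 21843, 375 and 2153 for SOX2 and 12447, 10382 and 9052 for β-catenin. At the Otx2 promoter they were 59181, 6251 and 935 for SOX2 and 11280, 16889 and 6666 for β-catenin, so β-catenin ranked lower at both than at Pou5f1. Klf2 and Fgf5 had 1 β-catenin-only region each, but these were called in 6 and 5 of 6 mutant SOX2 libraries and in 3 of 3 noCHIR SOX2 libraries each. Sox3 and Sox21 had no region of any class.

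**Figure D5:**
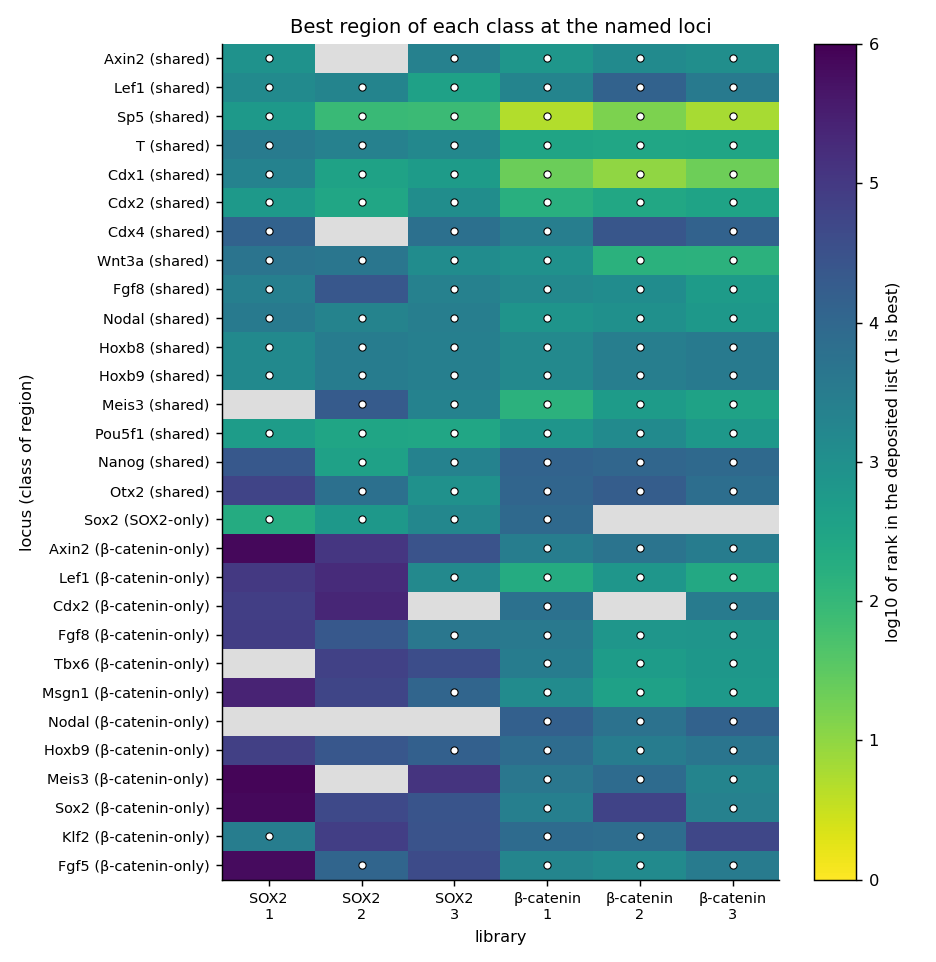
Rank in the full deposited list (colour, log10 scale, 1 is best) of the best region of each class at the named loci (rows) in the 6 libraries (columns). White dots mark peaks among the 20000 best and grey cells no peak. Hoxb8 and Hoxb9 share one region. Tbx6 and Msgn1 rows are strong for β-catenin and weak or empty for SOX2.

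The best regions of each class lay mostly in introns and between genes. Of the 5 best shared regions, among those called in all 6 libraries, 4 lay in introns of Asic2, Urm1 and Chn2 and 52582 bp upstream of 1700081H04Rik. The Asic2 region (chr11:81612509-81613961) ranked 1, 8 and 1 for SOX2 and 15, 62 and 23 for β-catenin. The region upstream of 1700081H04Rik ranked 2, 10 and 14 for SOX2 and 26, 115 and 100 for β-catenin. These 4 were called in all 24 other libraries. The 5 best SOX2-only regions lay in introns of Ebf1, Igfbpl1, Abca4, Gm47715 and Slc18b1. The Ebf1 region (chr11:44841248-44842360) ranked 123, 51 and 21 for SOX2 and 30632 in β-catenin replicate 3, with no peak in the other β-catenin lists. The 5 were called in 6 of 6 mutant SOX2 and 3 of 3 noCHIR SOX2 libraries. The 5 best β-catenin-only regions lay near 1700001O22Rik, Gm6594, Cdan1, Klhl6 and Olfr1374-ps1. The region near 1700001O22Rik (chr2:30783492-30785496) ranked 53, 59 and 29 for β-catenin and 40092, 116700 and 26695 for SOX2, and was called in 9 of 9 LEF1 libraries and in 5 of 6 mutant SOX2 libraries. The others were called in 5 to 8 of the LEF1 libraries.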

How the data were processed

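Chromatin immunoprecipitation was followed by single-end sequencing. Per the study's methods, the authors trimmed reads with Trim Galore, aligned them with BWA to mm10 and called narrow peaks per library with MACS at its default q threshold. The deposited values are a score, a fold enrichment (ratio) over local background, −log10 p and −log10 q at the summit. The score was not used.

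Peaks were ordered by −log10 q, with −log10 p and then fold enrichment to break ties. The 20000 best of each of 6 lists were merged where they overlapped by 1 bp. Genes and start sites were those of GENCODE M21 basic. Motifs were counted on both strands of GRCm38.p6 within 100 bp of summits, with windows 1000 bp away as background. Library values were compared by two-sided exact permutation tests (20 assignments, smallest p 0.1), similarity one-sided over 10 partitions, held-out libraries over 400 assignments within genotype or by sign flips, with Benjamini-Hochberg adjustment over 11 and 4 tests and a threshold of 0.05. Classification and tests were checked on simulated lists. Any pair of lists had at most 82 identical summits among the 20000 best. Reads at a summit were solved from fold enrichment and −log10 p by the formulas of MACS, to 0.01 in −log10 p, and are estimates.

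Regions, gene lists and loci were chosen with earlier results of these data known. The named loci were a fixed set of 24 genes plus, in each class, the 5 regions with the lowest mean rank, provided all 6 libraries called them (shared) or all 3 of a single factor and 0 of the other did, and list members in list order. A few of these items are not reported here. Read depth is unknown and input samples were not analysed here. Replicates are labelled biological, and every title carries the same tag, whose meaning is not given. The methods state that the triplicates of a condition came from separate experiments. Alternatives were 5000 best peaks, full lists, 3 of 3 libraries, other windows and each library left out. Python 3.11.15, numpy 2.4.6, pandas 2.3.3 and scipy 1.17.1 were used.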

Additional observations from a re-analysis of the deposited data

How the results depend on the processing

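The class differences in mutant and LEF1 libraries kept their direction and stayed past the threshold under all alternatives run for them, which took 5000 best peaks, full lists, stricter classes, 500 bp windows (added later) or left out each library. The class contrast in mutant libraries ranged from 75.8 to 133 percentage points, and those of LEF1 from 12.5 to 22.3 and from 16.9 to 23.1. In noCHIR libraries the contrast ran from 45.7 to 80.4 points, where no test can pass 0.05. The SOX difference kept its direction and ran from 1.12 points (full lists) to 10.8 (5000 best peaks), the TCF/LEF difference likewise from −5.90 to −33.8, and those near the summit kept theirs, but no 3 against 3 test can pass 0.05. Exact permutation p was 0.2 for SOX without β-catenin replicate 2 or 3. With a replicate block, the TCF/LEF difference of −16.1 points and the SOX difference of 5.56 points had p = 0.25, the smallest of an exact sign-flip test, which cannot pass the threshold. Deviations of the calls from the factor mean had correlations of −0.0049, 0.013 and −0.0061 between same-numbered libraries. Of the 88428 merged regions, 42110 were called in 1 SOX2 library alone and 31582 in 1 β-catenin library alone. At such regions only 1 factor deviates, so these correlations cannot tell whether the numbers pair the libraries.

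With 5000 best peaks, the promoter difference (SOX2 minus β-catenin) was 6.79 points, the log10 distance difference −0.11 and the CDX difference −0.06 points, reversed from −0.13, 0.011 and 1.33. The OCT difference reversed to −0.00091 with full lists. Leaving out 1 library, the promoter difference ran from −2.25 to 1.65, the distance from −0.018 to 0.059 and OCT from −0.0042 to 0.60, and the direction turned without SOX2 replicates 1 or 2 or β-catenin replicate 1 (promoter, distance) and without SOX2 replicate 3 (OCT). The cause was not tested. Shared, SOX2-only and β-catenin-only regions numbered 1179, 1563 and 3176 with 5000 best peaks, 12030, 83344 and 18152 with full lists, and 969, 983 and 4246 when 3 of 3 libraries were required, as the construction implies. Without 1 library they ran from 1333 to 2256, from 937 to 3590 and from 4232 to 8340. SOX2-only regions fell to 1605, 1766 and 937 without SOX2 replicates 1, 2 and 3, shared regions to 1333 without SOX2 replicate 3, and β-catenin-only regions to 4232 and 4645 without β-catenin replicates 1 and 2. Counting the gene of the nearest start site moved 8 of 33 list counts by over 1.5 times, such as neural genes with a shared region, 7 and then 16.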

Other observations

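Of the 5 best β-catenin-only regions, 3, those near Cdan1, Klhl6 and Olfr1374-ps1, held long identical stretches although they lie on different chromosomes. Over windows of 150 bp to either side of the summit, the Cdan1 and Klhl6 regions shared a run of 42 identical letters, and each shared 33 with the Olfr1374-ps1 region on the opposite strand, whereas the longest run in the other 102 of 105 pairs of best regions was 15. The 33 letters common to all 3 occurred at 32 places in the genome and in the windows of 19 of 7027 β-catenin-only regions, 1 of 2656 shared regions and 0 of 2921 SOX2-only regions. They are shown because they mark a repeated sequence among the strongest β-catenin-only regions, and they were chosen after the letters had been read.
Common run, plus strand of chromosome 2 at the Cdan1 region: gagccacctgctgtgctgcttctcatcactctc
Soft-masked letters, which the RefSeq genome marks as repeats, made up 44.6%, 46.5% and 46.5% of the windows of 50 bp to either side of the summit in these regions, 40.6% at Gm6594 and 0% at the best β-catenin-only region. Around all summits they made up 20.7% to 24.3% in SOX2 lists and 19.5% to 22.2% in β-catenin lists. By class they made up 19.8% in β-catenin-only, 18.1% in SOX2-only and 20.0% in shared regions. How reads from repeated places were handled in these lists was not tested.

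The classes were near neighbours at some loci. A β-catenin-only summit lay within 10 kb of 19.6% of shared regions and of 14.1% of SOX2-only regions. A SOX2-only summit lay within 10 kb of 8.66% of shared regions. Over all merged regions outside the class in question these values were 10.8% for β-catenin-only and 5.18% for SOX2-only summits. By the nearest start site of a protein-coding gene, 53.9% of the 2013 genes with a shared region and 42.8% of the 2453 genes with a SOX2-only region also had a β-catenin-only region, while these were 24.1% and 23.4% of the 4489 genes with a β-catenin-only region. Over all protein-coding genes, 20.5% had a β-catenin-only, 9.19% a shared and 11.2% a SOX2-only region by this rule.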
